A study of Mus musculus with 3 samples.

Results

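The genes described here are the replication-dependent histone genes of the mouse Hist1 cluster, taken as all genes on chromosome 13 of the GENCODE M1 annotation (mm9, NCBIM37) whose name starts with Hist1h. The rule gave 56 of the 37273 annotated genes, with 6 H1, 15 H2A, 15 H2B, 9 H3 and 11 H4 genes, and it used no measured value. Genomic DNA (gDNA) of E14 mouse embryonic stem cells (mESCs), an established line grown in serum with LIF and the inhibitors PD0325901 and CHIR99021, was sequenced with 3 methods and 1 library per method. TAPSβ reads 5-methylcytosine (5mC) as T after glucosylation has shielded 5-hydroxymethylcytosine (5hmC) and TET enzyme and pyridine borane have converted the rest, CAPS reads 5hmC as T after potassium ruthenate oxidation and pic-borane reduction, and PS reads 5-formylcytosine (5fC) and 5-carboxylcytosine (5caC) as T after pyridine borane alone. By the paper's account TAPSβ and CAPS also convert 5fC and 5caC. There was 1 gDNA source, no treatment and no replicate, so no group was tested against another. Every level below is the number of modified reads over all reads at CpG cytosines, summed over the region, with an exact (Clopper-Pearson) 95% interval that covers counting error only and treats reads of one molecule at neighbouring CpGs as independent. A listed CpG cytosine had a median of 13 TAPSβ reads and of 9 reads in each of CAPS and PS. Over chromosome 13 the levels were 60.0% in TAPSβ, 3.12% in CAPS and 0.247% in PS. The PS level was not above 0.27%, the background rate used for the PS calls.

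Replication-dependent histone genes supply the core histones H2A, H2B, H3 and H4 and the linker histone H1 when DNA is copied. Most have no intron, and their mRNAs end in a conserved stem-loop, bound by the stem-loop binding protein, in place of a poly(A) tail. H2A and H2B genes often lie head to head and share the DNA between their starts as a promoter. A few members are transcribed in the male germ line rather than in all dividing cells, among them Hist1h1t, which encodes the testis linker histone H1t, and Hist1h2aa and Hist1h2ba, which encode the testis forms of H2A and H2B. 5mC at a CpG-rich promoter is known to go with silence, and 5hmC, 5fC and 5caC are the products of TET oxidation of 5mC.

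In the annotation 55 of the 56 genes are protein-coding, Hist1h2aj is listed as a pseudogene, and 50 have a single exon. The genes fell into 6 groups when neighbours up to 50 kb apart were joined. These held 19, 5, 16, 13, 2 and 1 genes, the pair being Hist1h2ba with Hist1h2aa and the single one Hist1h2al. At least 50% of the CpG cytosines were listed in 43 genes. Hist1h3f and Hist1h1c had fewer listed, and Hist1h2ak, Hist1h2bn, Hist1h2bq, Hist1h2ao, Hist1h4m, Hist1h4n, Hist1h2ap, Hist1h2br, Hist1h4h, Hist1h3e and Hist1h4c are not analysed here over their gene spans. In Hist1h2bq, Hist1h2ao, Hist1h2ap and Hist1h2br 100% of the 100-bp words recur elsewhere in the genome, and in Hist1h4m and Hist1h4n 88.1% and 89.1% do. In the other 5 genes without listed cytosines this share was 7.49% to 52.1%, within the range of genes that were listed.

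The label of replication-dependent histone genes was checked on sequence, which does not separate H1, H2A, H2B, H3 and H4. The stem-loop consensus GGCNCTTTTNAGNGCC, searched on the coding strand within 150 bp past the coding end with at most 1 mismatch, was found in 49 of the 55 members with a coding sequence, 46 of them without a mismatch and all between 27 and 59 bp past the coding end. The same search found it in 63 of 22367 protein-coding genes (0.282%), 59 of which are named Hist1h to Hist4h. It was not found at Hist1h4j, Hist1h2bp, Hist1h2bq, Hist1h2br, Hist1h4b and Hist1h2al. Hist1h2bp, Hist1h2bq and Hist1h2br have spliced annotations of 3, 7 and 7 exons. There the search began past the outermost coding exon and could miss an element nearer the start. The elements of 1 gene per class and of the 3 germ-line genes are shown from NCBIM37 to show that both kinds carry the same 3′ element, with the matched bases in capitals and their coordinates given.
Hist1h1b, chr13:21871706-21871721, minus strand: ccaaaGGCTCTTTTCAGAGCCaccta
Hist1h2ai, chr13:21808708-21808723, plus strand: ccaaaGGCTCTTTTCAGAGCCactca
Hist1h2bl, chr13:21807587-21807602, minus strand: tcaaaGGCTCTTTTAAGAGCCaccca
Hist1h3h, chr13:21809964-21809979, plus strand: tcaaaGGCTCTTTTCAGAGCCaccca
Hist1h4k, chr13:21842019-21842034, minus strand: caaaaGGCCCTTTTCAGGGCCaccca
Hist1h1t, chr13:23788394-23788409, plus strand: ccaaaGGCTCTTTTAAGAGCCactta
Hist1h2aa, chr13:24026760-24026775, plus strand: aaaaaGGCTCTTTTCAGAGCCacctt
Hist1h2ba, chr13:24025599-24025614, minus strand: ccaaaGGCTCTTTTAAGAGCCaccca

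Promoter motifs were searched on both strands in the 250 bp before the annotated start. CCAAT, the CCAAT box, was present in 46 of 56 members against 33.7% of all 37273 annotated genes, and by class in 6 of 6 H1, 14 of 15 H2A, 15 of 15 H2B, 8 of 9 H3 and 3 of 11 H4 genes. TATAAA, the usual core of the TATA box, was present in 26 of 56 members against 15.0% of all genes. ATTTGCAT, the octamer bound by POU factors such as Oct-1, was present in 11 of 56 members against 2.09% of all genes, all 11 being H2A (5) or H2B (6) genes. Head-to-head partners share much of the searched DNA, so 1 motif can count for 2 genes, as the octamer between Hist1h2ah and Hist1h2bk does. The shared promoter of the head-to-head pair Hist1h2ah and Hist1h2bk and the last 200 bp before Hist1h4d are shown because they hold these motifs, which are in capitals, either strand.
Hist1h2ah to Hist1h2bk, chr13:22127513-22127689, plus strand: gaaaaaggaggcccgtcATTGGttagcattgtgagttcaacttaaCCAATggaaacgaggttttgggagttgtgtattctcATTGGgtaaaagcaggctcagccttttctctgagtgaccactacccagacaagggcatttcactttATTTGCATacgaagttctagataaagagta
Hist1h4d promoter, chr13:23673267-23673466, plus strand: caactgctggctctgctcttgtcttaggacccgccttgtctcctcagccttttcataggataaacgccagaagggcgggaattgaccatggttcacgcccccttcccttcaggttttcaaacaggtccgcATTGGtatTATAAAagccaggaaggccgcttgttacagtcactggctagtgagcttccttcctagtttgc
These promoters are poor in CpGs compared with the genes they serve. The first holds 3 CpGs in 177 bp and the second 6 CpGs in 200 bp. Over the 42 protein-coding members with most of their cytosines listed, the 250 bp before the start held a median of 3.20 CpGs per 100 bp (0 to 10), whereas the coding sequence held 10.8 (3.67 to 12.3). In the Hist1h2ah to Hist1h2bk promoter 1 TAPSβ read of 36 was modified at the middle CpG, none of 28 and none of 24 at the other two, and no CAPS or PS read was modified. At Hist1h4d no read of any library was modified at any of its 6 CpGs.

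The Hist1h genes were almost free of 5mC at their starts and over their coding sequence, and the DNA between them was not. Over all coding sequences the TAPSβ level was 1.49% (1.38 to 1.60, 746 of 50205 reads), 500 bp upstream it was 2.39% (2.15 to 2.64), and 500 bp downstream of the annotated end it was 10.8% (10.2 to 11.5). Between the genes of a group, at least 500 bp from any member, it was 48.6% (48.0 to 49.1), and in the gaps between the first 5 groups 48.9% (48.7 to 49.0). The level over whole gene spans, 9.15% (8.94 to 9.37), was raised by a few genes with long annotated spans, and without the genes over 2000 bp it was 1.70%. The intervals of the coding sequence, each flank and the DNA between the genes of a group do not overlap.

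Of the 45 members with at least 20 TAPSβ reads in the gene span, 39 had a level under 10%, against 5.36% of the 33591 annotated genes with as many reads, and 30 were under 1%. The median over the 45 was 0.403%, and over all annotated genes 57.4%. Histone genes are short, and most of a histone gene lies close to its start, so the same DNA was also compared in all genes. Over the first 400 bp from the start, 42 of 45 members were under 10%, against 43.6% of all annotated genes, and the median was 0.299% in the members, 33.3% in all annotated genes and 0.838% in protein-coding genes. In 500 bp upstream 43 of 47 members were under 10% (38.9% of all genes). The upstream median was 1.06%, against 35.9% over all annotated genes and 6.89% over protein-coding genes. In 500 bp downstream 28 of 45 were under 10% (5.24% of all genes) with a median of 4.76% against 67.0% over all annotated genes. The median over the first 400 bp was thus near that of protein-coding genes in general, and the upstream median was below theirs. In the 500 bp past the annotated end the members were far below the median of 66.7% over protein-coding genes. The comparison past the end is not matched for distance from the start, as most members end close to theirs. Flanks of single genes keep the DNA of neighbouring members, which the pooled flank levels leave out. The 3 members above 10% in the first 400 bp were Hist1h1t, Hist1h2aa and Hist1h2ba.

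**Figure D1:**
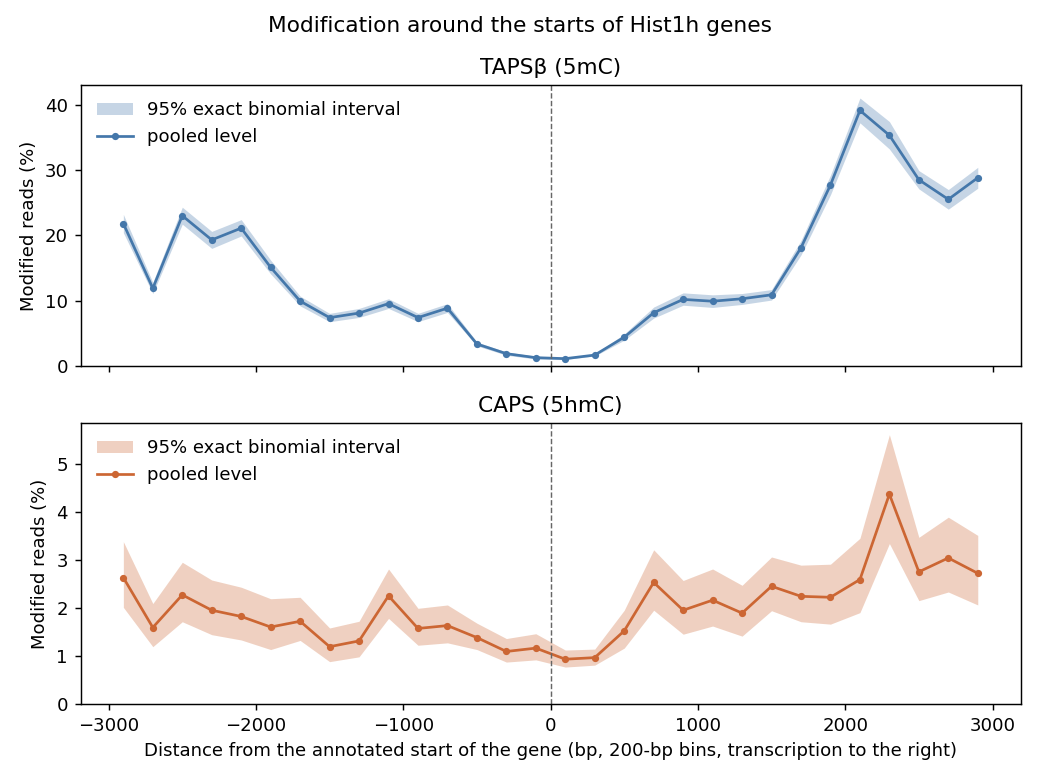
TAPSβ (top) and CAPS (bottom) level, in percent of reads, in 200-bp bins by distance in bp from the annotated start of the Hist1h genes, pooled over the genes with reads, with shaded exact 95% binomial intervals. The TAPSβ level is lowest at 1.14% in the first 200 bp of the genes, is 10.9% at 1400 to 1599 bp and 39.1% at 2000 to 2199 bp. A cytosine is counted for each gene whose window holds it.

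The 6 members above 10% over the gene span fell into 2 kinds. Hist1h2be (40.6%), Hist1h2bc (34.4%) and Hist1h2ac (11.8%), genes for H2B and H2A, have annotated spans of 37383, 8290 and 2482 bp. Their coding sequences were at 0.337% (0.0696 to 0.982), 6.28% (4.95 to 7.85) and 0.162% (0.0197 to 0.585), so most of the modified reads lay outside the part that encodes the histone. The annotated start of Hist1h2be lies beside Hist1h1e, while its coding sequence lies in the unmethylated DNA of Hist1h4d. The other members above 10% were the germ-line genes Hist1h1t (34.4%), Hist1h2aa (22.8%) and Hist1h2ba (15.7%), whose coding sequences had nearly the same levels as their spans.

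The 3 germ-line genes stood apart from the other members in both TAPSβ and CAPS. In TAPSβ the coding sequence of Hist1h1t was at 31.4% (27.6 to 35.4, 181 of 576 reads), that of Hist1h2aa at 22.8% (19.7 to 26.2, 152 of 667) and that of Hist1h2ba at 15.5% (12.8 to 18.5, 100 of 647). These 3 intervals do not overlap each other. In CAPS Hist1h1t was at 9.20%, Hist1h2ba at 8.12% and Hist1h2aa at 5.91%, and their intervals overlap. Pooled, the germ-line genes were at 22.9% (433 of 1890 reads) in TAPSβ and 7.95% (6.31 to 9.85) in CAPS, whereas the other members were at 0.648% (0.578 to 0.723) and 0.689% (0.591 to 0.797). The germ-line level, with a log-scale interval for counting error, was 35.4 times (30.6 to 40.9) that of the other members in TAPSβ and 11.5 times (8.82 to 15.1) in CAPS. The TAPSβ ratio depends on few genes, since without Hist1h2bc, Hist1h2al, Hist1h2bf, Hist1h2bh and Hist1h2bm the other members were at 0.317% (0.266 to 0.375) and the ratio was 72.3 (59.6 to 87.7). No level was corrected for the false-positive rate of its method, which bears most on levels this low. The TAPSβ and CAPS ratios are thus ratios of uncorrected levels, with denominators that include background. The TAPSβ denominator of 0.317% lies little above the false-positive rate of TAPSβ on unmodified DNA, so 72.3 is not a ratio of 5mC levels. In PS the ratio was 0.739 (0.234 to 2.34), with 3 modified reads of 1433 in the germ-line genes. The germ-line genes were at 0.209% (0.0432 to 0.611) and the other members at 0.283% (0.227 to 0.349). Both intervals hold 0.27%, the background rate used for the PS calls, so no difference was detectable. The CAPS level of the other members lay close to 0.72%, the background rate used for the CAPS calls.

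Modified reads were spread along the germ-line genes and were not a matter of single CpGs. In Hist1h1t 43 of 46 coding cytosines had at least 1 modified TAPSβ read, and the levels of single cytosines with at least 5 reads ran from 0% to 75% with a median of 33.3%. In Hist1h2aa 41 of 50 had one, and the level was 12.6% in the CpGs nearer the start and 33.4% in those farther from it. In Hist1h2ba 40 of 56 had one. Hist1h1t was also modified before its start, at 56.6% (49.4 to 63.6) in the 500 bp upstream, whereas Hist1h2ba and Hist1h2aa, which face each other, were at 10.6% and 11.8% there. Their starts are 305 bp apart, so each of these 2 windows includes part of the other gene. Between the 2 starts the level was 5.83% (12 of 206 reads). In its 500 bp upstream Hist1h1a, a somatic H1 gene, was at 3.41% (1.92 to 5.56). The 250 bp before the starts of Hist1h1a and Hist1h1t are set side by side because they hold similar numbers of CpGs (11 and 10, in capitals) and differ in modification.
Hist1h1a promoter, chr13:23855287-23855536, plus strand: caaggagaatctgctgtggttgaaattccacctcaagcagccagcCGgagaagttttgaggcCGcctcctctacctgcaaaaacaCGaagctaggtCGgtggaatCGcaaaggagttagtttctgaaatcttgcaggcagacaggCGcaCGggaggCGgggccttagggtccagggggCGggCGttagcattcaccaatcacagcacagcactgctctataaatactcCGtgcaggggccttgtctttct
Hist1h1t promoter, chr13:23787430-23787679, plus strand: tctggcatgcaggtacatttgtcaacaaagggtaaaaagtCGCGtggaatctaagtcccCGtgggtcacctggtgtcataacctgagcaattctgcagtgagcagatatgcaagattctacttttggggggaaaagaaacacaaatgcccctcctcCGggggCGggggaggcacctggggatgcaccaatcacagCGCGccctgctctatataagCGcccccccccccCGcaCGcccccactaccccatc
At the 11 CpGs of Hist1h1a not 1 of the 23 to 38 TAPSβ reads per CpG was modified. At the 10 CpGs of Hist1h1t the TAPSβ level was 73.9% (17 of 23 reads) at 210 bp before the start, 52.2% at 208 bp, 38.1% (8 of 21) at 191 bp, 56.2% at 94 bp, 62.5% (10 of 16) at 88 bp, 72.2% (13 of 18) at 55 bp, 53.8% at 53 bp, 50% (6 of 12) at 35 bp, 10% (1 of 10) at 22 bp and 25% (2 of 8) at 18 bp. The first 8 of these ran from 38.1% to 73.9% in no order with distance, and the last pair was lower. The intervals at the last CpGs are wide, 0.253% to 44.5% at 22 bp. Both sequences contain a CCAAT box.

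The CAPS levels of the germ-line genes were set beside those of other genes of like TAPSβ level, a comparison chosen after these values were seen. In the first 400 bp, 2700 other annotated genes had a TAPSβ level of 10% to 40% and at least 20 reads in both libraries, and their CAPS levels had a median of 5.70% and quartiles of 3.68% and 8.33%. Hist1h1t was at 10.8% (6.88 to 15.9), above 88.1% of them, Hist1h2ba at 7.73% (5.31 to 10.8), above 70.7%, and Hist1h2aa at 5.91% (3.27 to 9.71), above 52.5%.

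Among the linker histone genes, the coding sequences of the somatic members had TAPSβ levels of 0.199% (0.0241 to 0.716) at Hist1h1b, 0.227% (0.0468 to 0.661) at Hist1h1e, 0.268% (0.0872 to 0.625) at Hist1h1d and 1.25% (0.668 to 2.13) at Hist1h1a. At Hist1h1c, listed over 38.1% of its cytosines, 1 of 926 coding reads was modified (0.108%). The intervals of Hist1h1b, Hist1h1e and Hist1h1d overlap. Their CAPS levels were 0.630%, 0.409% and 0.469%, and that of Hist1h1a was 0.414%, all below 0.72%. Hist1h1d has a span of 3821 bp and its level was 83.5% in the 500 bp past its annotated end, while Hist1h1e was at 0.385% there.

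**Figure D2:**
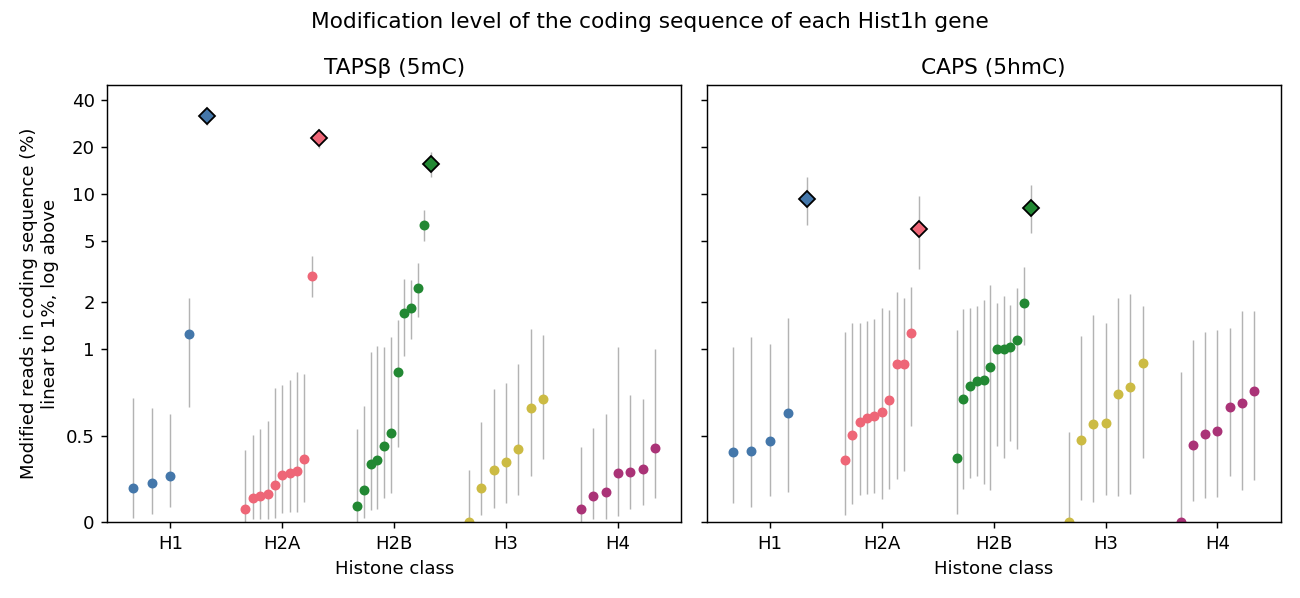
Level of the coding sequence of each of the 42 listed protein-coding Hist1h genes, in percent of reads, in TAPSβ (left) and CAPS (right), by histone class, with exact 95% binomial intervals as grey bars; the axis is linear to 1% and logarithmic above. Diamonds are the germ-line genes Hist1h1t, Hist1h2aa and Hist1h2ba, at 31.4%, 22.8% and 15.5% in TAPSβ, and circles are the other genes, which lie at or under 6.28%.

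With the germ-line genes included, the median TAPSβ level of the coding sequence was 0.268% in H1, 0.272% in H2A, 0.347% in H3, 0.285% in H4 and highest, 0.692%, in H2B genes. Pooled and without the germ-line genes, H2B was at 1.57% (1.34 to 1.83), H2A at 0.539% (0.417 to 0.685), H1 at 0.390% (0.250 to 0.579), H3 at 0.377% (0.265 to 0.519) and H4 at 0.243% (0.151 to 0.372), in coding sequences of 1 annotated block. H2B was above the other classes, and the intervals of neighbours in this order overlap from H2A to H3 and from H3 to H4. The H2B value rests on a few genes, Hist1h2bc with 72 of 1146 reads, Hist1h2bf with 26 of 1057 (2.46%), Hist1h2bh with 22 of 1188 (1.85%) and Hist1h2bm with 15 of 874 (1.72%), and without these 4 it was 0.470% (0.315 to 0.675). The order of the classes rests on single genes too, since H2A was at 0.213% (0.135 to 0.319) without Hist1h2al and H1 at 0.215% (0.107 to 0.384) without Hist1h1a. These levels were not corrected for the false-positive rate of TAPSβ on unmodified DNA. The intervals of H4, of H2A without Hist1h2al and of H1 without Hist1h1a hold that rate. An order of 5mC among the classes other than H2B is therefore not shown. The H2B interval without its 4 named genes overlaps the interval of each other class. A higher level across the H2B genes in general is thus not shown either. In Hist1h2bc 52 of 72 coding cytosines had a modified read and the highest single level was 25%, so its level was spread over the gene, with 9.40% in the CpGs nearer the start and 3.37% in those farther from it. In Hist1h2bf, Hist1h2bh and Hist1h2bm, unlike Hist1h2bc, the modified reads lay more in the CpGs farther from the start (3.61%, 2.59% and 3.69%) than in those nearer to it (0.893%, 1.05% and 0.202%). These values rest on few cytosines, as 18 of 64, 16 of 66 and 11 of 66 had a modified read. The top 2 cytosines of each gene held 26.9%, 22.7% and 33.3% of its modified reads. Outside H2B, the highest somatic level was 2.97% (2.16 to 3.98) at Hist1h2al, the H2A gene that lies far from the others. In CAPS and over the same genes, H2B was at 0.971% (0.740 to 1.25), H2A at 0.707% (0.508 to 0.958), H3 at 0.573% (0.371 to 0.845), H4 at 0.544% (0.362 to 0.785) and H1 at 0.474% (0.281 to 0.749), and without 1 variant-like cytosine of Hist1h2bc, described with the PS calls, H2B was at 0.923% (0.698 to 1.20). In PS the same genes ran from 0.182% in H1 to 0.373% (0.244 to 0.545) in H2B, which was 0.287% (0.176 to 0.443) without that cytosine. The intervals of all 5 classes overlap and hold 0.27%, the background rate used for the PS calls.

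The class levels around the genes were pooled, and no gene was left out in turn. A zone can hold the flank of a neighbouring member, such as a head-to-head partner. The same cytosine can then count in 2 classes. In the 250 bp before the coding start the TAPSβ level of the somatic genes was 0.264% to 0.647% in the 5 classes. At 501 to 1000 bp before it, H1 had reached 29.9% (271 of 905 reads) and H4 13.9% (12.5 to 15.5), while H2A was at 8.74% (7.42 to 10.2), H2B at 2.53% (1.98 to 3.18) and H3 at 2.54% (2.04 to 3.13). The order did not hold farther out. At 2001 to 4000 bp before the coding start H1 was lowest, at 10.1% (9.17 to 11.1), and the others ran from 24.6% in H3 to 34.0% in H4. Past the coding end the classes were at 1.22% to 3.91% in the first 250 bp. At 501 to 1000 bp past it, H1 was at 2.45% (1.75 to 3.33), H3 at 8.23% (6.95 to 9.66), H4 at 12.4% (10.6 to 14.5), H2B at 12.8% (11.2 to 14.6) and H2A at 15.7% (14.2 to 17.2). At 1001 to 2000 bp they ran from 22.8% in H2A to 43.1% in H4. Measured from the annotated gene end and with the germ-line genes, the 500 bp downstream were at 20.4% (18.8 to 22.2) in H2B and 2.84% (1.97 to 3.97) in H4, a comparison that depends on how far each annotated end lies past the coding end.

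The DNA between the starts of head-to-head somatic H2A and H2B genes was almost free of modified TAPSβ reads. Of 12 head-to-head H2A and H2B pairs, the germ-line pair included, 8 had reads, with 13 modified of 1765 TAPSβ reads (0.737%, 0.393 to 1.26). Of the 13, 12 were in the germ-line pair Hist1h2ba and Hist1h2aa, which had 5.83% of 206 reads modified. The other 7 pairs held 1 modified read of 1559 (0.0641%, 0.00162 to 0.357). This interval lies below that of the pooled somatic coding sequences, whose value rests largely on Hist1h2bc, Hist1h2al, Hist1h2bf, Hist1h2bh and Hist1h2bm, but it holds the median of 0.297% over the somatic genes. In CAPS the germ-line pair had 9 of 160 reads modified (5.62%) and the other 7 pairs 0% to 2.34%. Pooled, these 7 pairs were at 1.53% (0.877 to 2.47, 16 of 1046 reads) in CAPS beside 0.689% (0.591 to 0.797) in the somatic coding sequences. Of the 16 reads 11 lay in 2 pairs, and without Hist1h2an and Hist1h2bp the level was 1.27% (0.609 to 2.32), without Hist1h2bl and Hist1h2ai 1.38% (0.692 to 2.46), so a difference from the coding sequences depends on single pairs. In PS they were at 0.357% (0.0972 to 0.910).

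To place the borders of the unmethylated DNA, stretches were defined in TAPSβ as runs of CpGs whose level, summed over 5 neighbouring CpGs, was under 20%, with CpGs at most 1000 bp apart. The starts of 44 of the 56 members lay in a stretch, against 43.5% of all annotated genes. Hist1h1t was the single member with reads in its gene span whose start lay in none. Hist1h4h and Hist1h3e had reads upstream only, where their levels were 0.262% and 0%, and the remaining 9 had no reads in their span or upstream. The 44 starts lay in 25 stretches, and 15 of these held the starts of 2 or 3 members. The median stretch was 2740 bp long (1034 to 8450), against 1975 bp over the stretches of all protein-coding genes, of which 61.2% start in one.

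The 3 longest stretches were that of Hist1h3c and Hist1h2bb with 8450 bp (chr13:23832101-23840550, TAPSβ 1.77%), that of Hist1h4d with 6272 bp (chr13:23672920-23679191, 1.58%), which also holds the coding sequence of Hist1h2be, and that of Hist1h4a, Hist1h3a and Hist1h1a with 5679 bp (chr13:23851464-23857142, 1.80%). The shortest, 1034 bp (chr13:24025571-24026604), was that of the germ-line pair Hist1h2ba and Hist1h2aa, with a TAPSβ level of 13.4% (11.6 to 15.3) and a CAPS level of 6.68% (5.01 to 8.68). In the other 24 stretches the CAPS level was 0.556% to 2.90%, the highest at Hist1h2al.

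**Figure D3:**
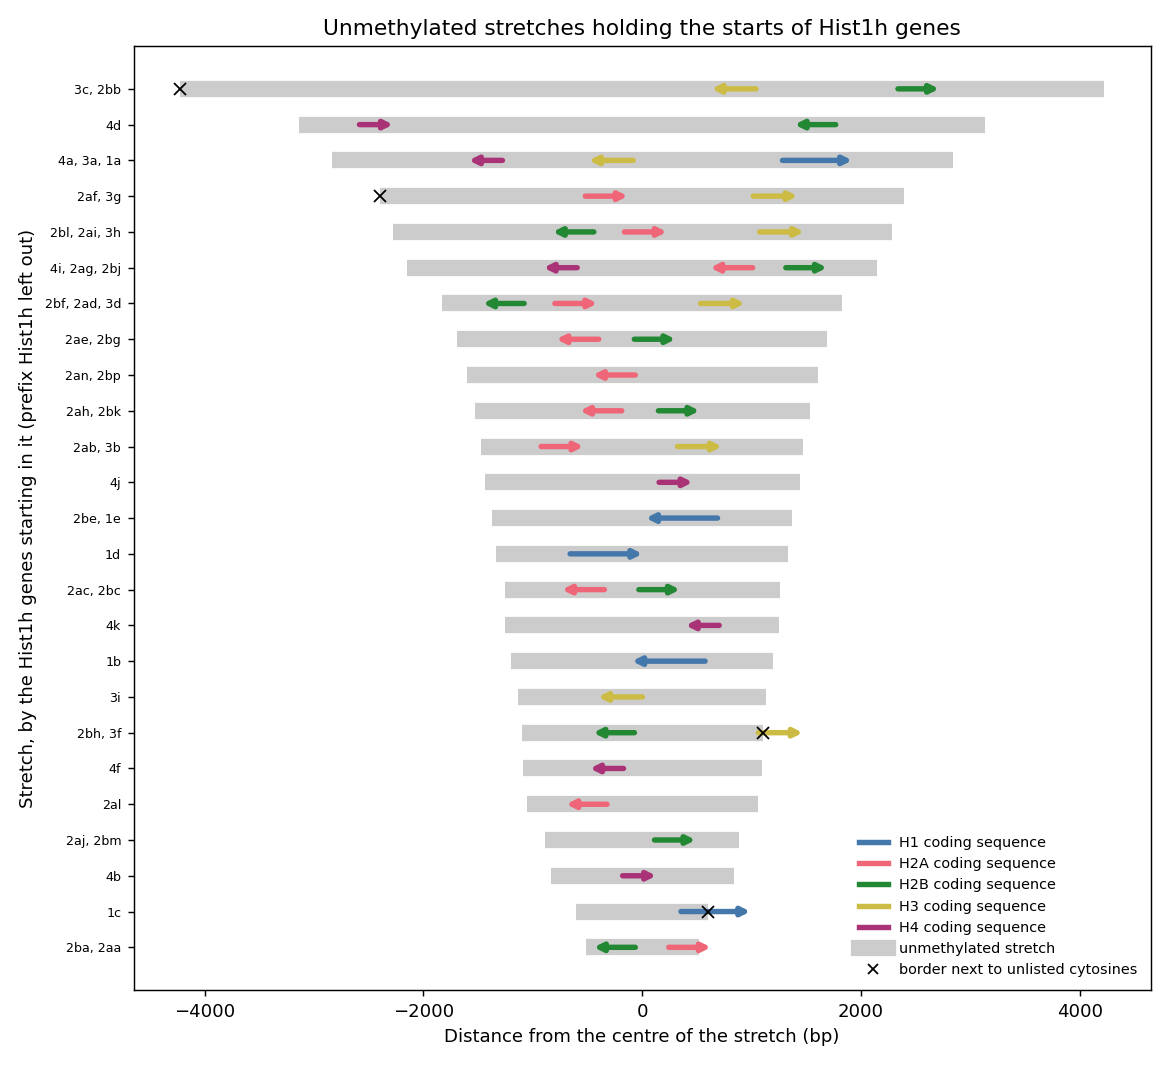
The 25 unmethylated stretches as grey bars by distance in bp from their centre, ordered by length and named by the Hist1h genes that start in them, with the coding sequences inside them as arrows in the direction of transcription (the spliced coding sequence of Hist1h2bp is not drawn, the pseudogene Hist1h2aj has none, and Hist1h2be has its coding sequence in the stretch of Hist1h4d). Crosses mark the 4 borders that run into unlisted cytosines, and the stretches run from 1034 bp (bottom) to 8450 bp (top).

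Of the 50 borders, 4 ran into DNA with more than 20 unlisted cytosines within 500 bp and could not be placed, among them the left border of the longest stretch. The lengths given for stretches with such a border cover the listed DNA only. The right border of the Hist1h1c stretch (1203 bp) was another and faces the longest stretch. Whether these form 1 stretch could not be told. At the 12 placed borders that faced the 5′ end of the outermost member, the border lay 503 to 1533 bp outside the gene, with a median of 646 bp. At the 34 that faced a 3′ end the median was 662 bp, but the range was wide, and at 6 of them the border lay inside the annotated span. The TAPSβ level over 5 CpGs reached 50% at a median of 251 bp outside the placed borders, and within 100 bp at 13 of 46. A sharp border upstream of Hist1h1b is shown, with CpGs in capitals. It was chosen after its values were seen.
Hist1h1b upstream border, chr13:21872899-21873178, plus strand: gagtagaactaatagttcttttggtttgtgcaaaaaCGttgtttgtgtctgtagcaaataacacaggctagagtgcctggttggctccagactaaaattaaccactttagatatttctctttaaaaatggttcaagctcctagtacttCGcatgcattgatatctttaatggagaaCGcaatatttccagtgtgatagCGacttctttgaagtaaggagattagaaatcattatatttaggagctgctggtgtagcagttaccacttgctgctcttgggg
Its 4 CpGs, at 441, 553, 581 and 603 bp before the start of Hist1h1b, had TAPSβ levels of 14.3% (4 of 28 reads), 52.6% (10 of 19), 68.2% (15 of 22) and 70.0% (14 of 20), and no CAPS or PS read was modified at any of them. The first 2 of these CpGs lie in the stretch, whose rule averages over 5 CpGs.

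The 5mC step at the borders follows from the rule, but CAPS was not used to place them. Cytosines inside any stretch were left out of the zones outside the borders. The levels there therefore leave out DNA that the rule called unmethylated. The CAPS level was 1.22% (1.12 to 1.32) inside the Hist1h stretches, 5.59% (4.45 to 6.91) at 1 to 250 bp outside, 4.44% (3.41 to 5.68) at 251 to 500 bp, 2.89% (2.31 to 3.57) at 501 to 1000 bp and 3.01% (2.54 to 3.54) at 1001 to 2000 bp. The CAPS level was highest in the first 250 bp outside, where the interval does not overlap those from 501 bp on. The 12390 stretches of other protein-coding genes had 1.43% inside, 5.58% at 1 to 250 bp, 4.93% at 251 to 500 bp and 4.25% at 501 to 1000 bp. The Hist1h stretches did not differ from them beyond counting error in the first 500 bp, and from 501 to 4000 bp their CAPS level was lower. Some Hist1h stretches lie close together, and a cytosine between them counts for each. The intervals outside the borders are therefore narrower than the distinct reads allow. The TAPSβ level was lower than at the other stretches at 1 to 250 bp, 44.3% (42.2 to 46.3) beside 46.8%, and higher at 251 to 500 bp, 60.9% (58.6 to 63.3) beside 55.4%, and at 501 to 1000 bp, 65.2% (63.6 to 66.7) beside 61.0%. Among the cytosines kept, the difference at 1001 to 2000 bp (61.5% beside 62.6%) and 2001 to 4000 bp (62.5% beside 62.7%) was within counting error. With stretches kept in and distance taken from the somatic coding sequences, 2001 to 4000 bp before them was at 27.4% in TAPSβ. The same distance past them was at 32.0%. The PS level was 0.244% inside and 0.0611% (0.00155 to 0.340) just outside, with 1 modified read of 1638.

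**Figure D4:**
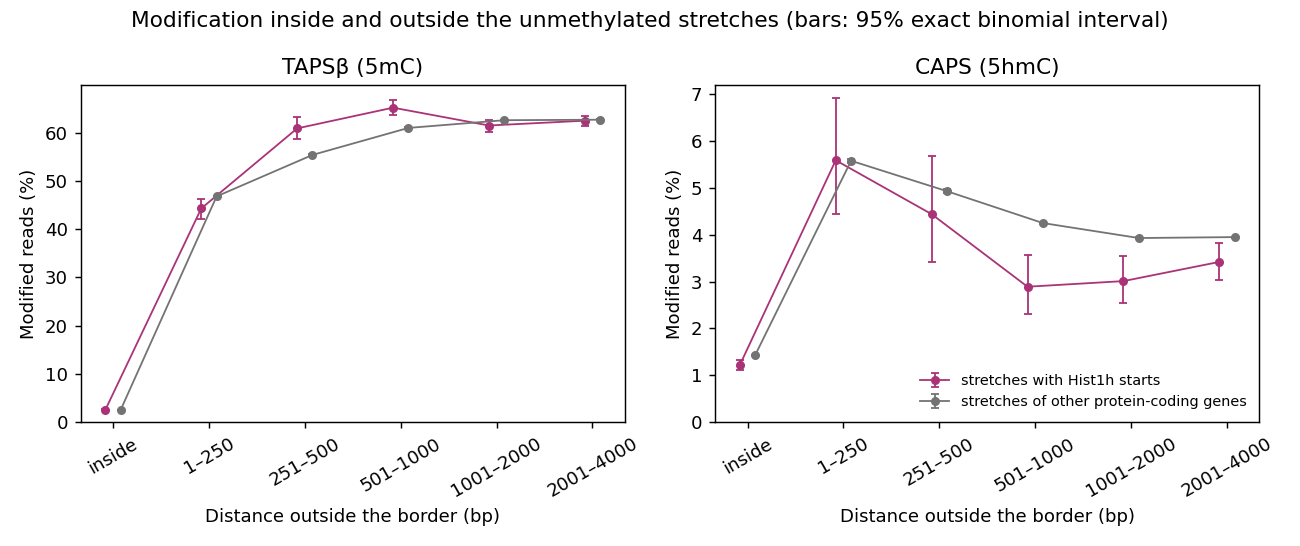
TAPSβ (left) and CAPS (right) level, in percent of reads, inside the unmethylated stretches and in zones outside their borders (bp), for the 25 Hist1h stretches and 12390 stretches of other protein-coding genes, with exact 95% binomial intervals as bars. CAPS peaks at 5.59% and 5.58% in the first 250 bp outside, and at 501 to 1000 bp the Hist1h stretches are at 2.89% against 4.25%.

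Single cytosines were called modified in CAPS when their modified reads exceeded a background rate of 0.0072 (exact binomial test, one-sided, 5 or more reads), with Benjamini-Hochberg adjustment over all cytosines tested in the genome. In the Hist1h genes and their 500-bp flanks 29 of 5246 tested cytosines were called (0.553%), against 1.64% of all tested cytosines, and between the genes 31 of 2201 (1.41%). The germ-line genes held 10 of their 218 tested cytosines (4.59%) and the other members 19 of 5028 (0.378%). In Hist1h1t 5 cytosines were called, 2 of them on opposite strands of 1 CpG, with the highest level at 42.9% (3 of 7 reads, adjusted p = 0.00284 in the exact binomial test). In Hist1h2ba 3 and in Hist1h2aa 4 were called, 2 of them shared because each gene lies in the upstream flank of the other. Hist1h2be held 6, all between its annotated start and its coding sequence, Hist1h2ac and Hist1h2bc held 3 each with 1 shared, Hist1h4k and Hist1h2al 2 each, and Hist1h2bl, Hist1h2bh, Hist1h3d and Hist1h1c 1 each, the one in Hist1h2bl also lying upstream of Hist1h2ai. All but 1 of the calls rest on 2 to 4 modified reads. At 4 of the calls outside the germ-line genes no TAPSβ read was modified.

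In PS 2 of 5631 tested cytosines were called (0.0355%), against 0.0791% of all tested cytosines. One lay in the coding sequence of Hist1h2bc at chr13 position 23776317, plus strand, with 37.5% in PS, 27.3% in CAPS and 18.2% in TAPSβ. The other lay just past the annotated end of Hist1h2bc at 23784361, minus strand, with 59.1% in PS, 52.9% in CAPS and 96.3% in TAPSβ. Both were also called in CAPS, and both had a PS level over the 20% at which a cytosine was treated as variant-like, since a C-to-T variant is read as modified by every method. A variant at these positions was not tested.

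Coverage differed between the classes and between the libraries. Relative coverage is the mean number of reads per listed cytosine over the autosomal mean of the library. Over the coding sequences it was 1.18 in TAPSβ, 0.855 in CAPS and 1.03 in PS. Over the gene spans it was 1.16, 0.907 and 1.02, and with all reference cytosines as the denominator, the genes not analysed here included, it was below 1 in each library at 0.953, 0.742 and 0.832. In TAPSβ the median over genes ran from 1.09 in H2A to 1.39 in H4. In CAPS it was 1.06 in H1, 0.687 in H2A, 0.882 in H2B, 0.819 in H3 and 1.07 in H4, and none of the 11 H2A genes exceeded 0.824. In PS the medians were 0.843 in H2A and 1.02 to 1.16 in the other classes. The lowest mean TAPSβ coverage over the gene span among the listed members was 9.68 reads at Hist1h4j, then 11.3 at Hist1h2ai, 11.6 at Hist1h2aj and Hist1h2ba and 12 at Hist1h3b, all below the library's mean of 12.8. H2A genes also had the most GC-rich coding sequences, with a median GC content of 69.5%, against 57.4% in H1. Across the 42 genes, as a description of these libraries, Spearman's rho between GC content and relative coverage was -0.405 in CAPS, -0.0814 in TAPSβ and -0.158 in PS, and between the share of 100-bp words found elsewhere and relative coverage it was -0.171, -0.0570 and -0.252. The CAPS library was also made from shorter fragments than the others. The part of GC content, repeated words and fragment size in the coverage was not tested.

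**Figure D5:**
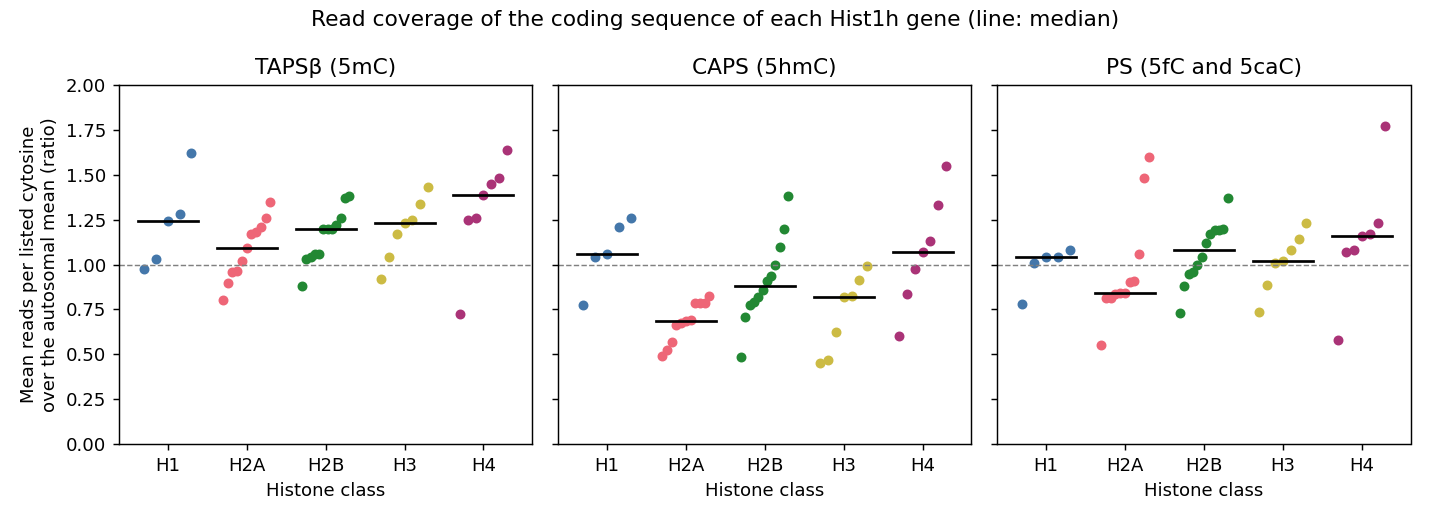
Relative coverage (mean reads per listed cytosine over the autosomal mean, a ratio) of the coding sequence of each of the 42 listed protein-coding Hist1h genes by histone class in TAPSβ, CAPS and PS, with the class median as a line and the autosomal mean as a dashed line at 1. H2A genes have the lowest class median in each library, 1.09, 0.687 and 0.843.

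Of the 14 histone genes named Hist2h, Hist3h or Hist4h, the most similar genes outside the cluster, 6 started in a stretch, against 43.5% of all annotated genes and 61.2% of protein-coding genes. At 7 of the 8 others no upstream read was listed, and the 7 genes with upstream reads were all under 10% there (median 0.247%). Of the 14, 10 had at least 20 reads, and 8 of these were under 10% in TAPSβ (5.36% of all genes) with a median of 1.08%. A further list held 12 histone genes taken as replication-independent, most of which are expressed outside S phase and have introns. Of these 12, 10 started in a stretch, 8 were under 10% in the 500 bp upstream (38.9% of all genes) and 5 over the gene span (median 16.6%). H2afz, H2afx, H2afj and H1fx, which encode the variants H2A.Z, H2A.X, H2A.J and H1X, were at 0.819%, 0.410%, 0.672% and 0.507% over their spans, and H1foo, the oocyte linker histone gene, was at 71.6%. H1foo and H3f3b, which encodes H3.3 and was at 8.03%, started outside any stretch. Of 18 genes for histone mRNA processing and cluster factors, 17 started in a stretch and 15 were under 10% upstream, with a median of 0.350%, but none of the 18 was under 10% over its span (median 41.2%). Slbp, which encodes the stem-loop binding protein, was at 37.6% and Npat, which encodes a coactivator of histone transcription, at 47.5%, and the exception, Zfp473, encodes a zinc finger protein of histone pre-mRNA processing. Of the 8 other genes that start inside the groups, 5 lay in a stretch and 2 were under 10% over their span.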

How the data were processed

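gDNA of E14 mESCs was measured with TAPSβ, CAPS and PS, 1 library each, grouped by the method in the labels. The submitters' processing notes name Trim Galore 0.3.1, BWA 0.7.12, Picard 2.3.0 and mm9. The files deposited by the authors give, per strand and CpG cytosine, counts of modified and of unmodified reads and the fraction between them, not normalized. The fraction matched the counts on every line and was not used further. All lines lay at CpG cytosines of NCBIM37. The libraries held 511365019, 377288829 and 383591531 base calls in TAPSβ, CAPS and PS.

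Counts were summed over annotated gene spans, coding sequences, 500-bp flanks and the DNA between members, with exact binomial intervals at a confidence level of 0.95, using Python 3.11.15, numpy 2.4.6, pandas 2.3.3 and scipy 1.17.1. A level of a gene needed at least 20 reads. Reads of low mapping quality had been removed by the authors. CAPS and PS cytosines with at least 5 reads were tested, one-sided and exact binomial, against rates of 0.0072 and 0.0027, the false-positive rates that the study measured on unmodified spike-in DNA, with Benjamini-Hochberg adjustment over the genome and a threshold of 0.05. The scripts were tested on simulated data. In later steps the authors left out sites at known E14 variants and in artifact-prone regions, and whether the deposited files were so filtered is not given in the sources used here. Ratios have intervals from a normal approximation on the log scale.

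Named with values were the 5 members with the highest level and the 5 with the lowest coverage, the germ-line and H1 genes, members with called cytosines, those of the 3 longest stretches and those whose start lay in no stretch. Hist1h2bf, Hist1h2bh, Hist1h2bm and Hist1h2al, the printed promoters and the border of Hist1h1b were chosen after their values were seen. The members, lists and motifs were chosen with earlier results of these data known. Alternatives for the coverage minimum, averaging, variant-like and high-coverage cytosines, strand, widths and thresholds were tried. Leaving out the germ-line genes, genes over 2000 bp, single genes or pairs with many modified reads or the cytosine called in PS, and the first 400 bp, were chosen after seeing the data.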

Additional observations from a re-analysis of the deposited data

How the results depend on the processing

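With 1 library per method no replicate could be left out. No paired analysis was possible because each method has 1 library. Of 270 recomputed levels of 45 single genes, 253 stayed within the gene's interval and all 270 on the same side of 10%. Of 78 other recomputed values 51 kept within the interval or within 1.5 times and 27 moved. The number of starts in a stretch was 44 in every setting, and the median stretch ran from 2220 to 3172 bp. The TAPSβ level over gene spans moved to 10.2% when single cytosines were averaged, to 8.93% and 9.37% on the plus and minus strands, and to 1.49% over the coding sequence. Upstream it was 3.08% when averaged, 1.86% over 250 bp and 6.64% over 1000 bp. Downstream it was 12.1% when averaged, 10% without high coverage, 11.8% over 250 bp and 14.2% over 1000 bp. Between genes it was 50.6% when averaged and 45.1% with groups joined at 20 kb. CAPS calls in the members numbered 103 at a background rate of 0.0038 and 17 at a minimum of 10 reads, beside 5.49% of all tested cytosines in the genome at that rate and 378776 of 19288427 at that minimum. Without variant-like cytosines 0 PS calls were left, which follows from that filter. Relative coverage of the gene spans, 1.16 in TAPSβ, 0.907 in CAPS and 1.02 in PS, was 0.953, 0.742 and 0.832 over all reference cytosines, the genes not analysed here included, which put TAPSβ and PS below the autosomal mean, and 1.18 in TAPSβ and 0.855 in CAPS over the coding sequence. Alternatives chosen after seeing the data left out the germ-line genes, which gave 8.69% over gene spans, 1.62% upstream and 8.14% downstream in TAPSβ, 1.21% over gene spans in CAPS and 19 CAPS calls, or the genes over 2000 bp, which gave 1.70%. At 9 to 13 reads single CpGs are imprecise, so levels were summed over many.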
